A study of Mus musculus with 15 samples.

Results

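Cartilage-like and mineralisation genes were followed in lesional foam cells of mice lacking apolipoprotein E as a set of 10 genes picked by name, Sox9, Acan, Comp, Chad, Hapln1, Cytl1, Matn4, Runx2, Ibsp and Sp7. On the array, 15 probe sets were annotated to exactly 1 of these symbols and covered 9 of the 10 genes, out of 18193 genes in all. Runx2 had no probe set in the annotation used here and was not analysed. Each gene was represented by its brightest probe set, and 5 of the 9 (Sox9, Acan, Comp, Hapln1 and Cytl1) were bright enough on average to be tested among 11925 genes. Chad, Matn4, Ibsp and Sp7 lay below that filter level, an intensity of 34.6, and are described by their values.

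Sox9 is the transcription factor that starts and maintains the cartilage programme, in which chondrocytes secrete a matrix of aggrecan (Acan), hyaluronan, link protein and cartilage-type collagens. Runx2 and Sp7 (osterix) are the factors that commit cells to the osteoblast fate, and Ibsp encodes bone sialoprotein, a protein of mineralised matrix. In atherosclerotic arteries and in the valve leaflets of the aortic root, cells with chondrocyte-like and osteoblast-like features are known to arise and calcium phosphate can be laid down.

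The foam cells, lipid-laden macrophages, were laser-captured from sections of the aortic sinus of C57BL/6 ApoE-/- mice. Amplified RNA of the captures went onto 15 arrays, 5 in each of 3 diet groups. CHOW mice ate regular chow up to 22 weeks. The 14w-WD mice ate chow for 8 weeks and a western-type diet for the next 14 weeks. The timing of 2w-WD is uncertain: its labels put 2 weeks of the diet after 20 weeks of chow, and the series text puts the diet in weeks 22 to 24. All 3 groups share the strain and the missing Apoe gene, and nothing in the labels links an array to a particular animal. The p-values therefore measure only how these samples spread, and part of that may be technical.

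Array medians lay between 31.7 and 38.2, and probe sets brighter than 100 made up a share that ran from 20.4% to 24.7% in CHOW, from 18.2% to 25.7% in 2w-WD and from 22.5% to 27.2% in 14w-WD. On the log2 scale the macrophage gene Adgre1 (F4/80) stood at 12.81 ± 0.19, 12.79 ± 0.23 and 12.93 ± 0.05 (SD, n = 5 each) for CHOW, 2w-WD and 14w-WD. The captures also held strong signal of some genes of other cells. Acta2, the smooth muscle actin, stood at 13.53 ± 0.30, 13.23 ± 0.09 and 13.17 ± 0.48. Levels of the cardiac myosin gene Myh6 were 13.31 ± 1.88, 14.44 ± 0.26 and 14.08 ± 0.42. Acta2 was much brighter than its marker list as a whole. The mean of the 10 smooth muscle markers was 7.09 ± 0.60, 6.79 ± 0.47 and 7.22 ± 0.33. Of these 10 markers 8 were above the filter level on average. All 10 fibroblast and valve interstitial markers were above the filter level on average. Of 12 chondrocyte markers 7 were above it, but this list shares genes with the set. Those above it were Sox9, Acan, Comp, Hapln1 and Cytl1 of the set itself, and Col9a1 and Snorc from outside it. Col2a1, the collagen chain that defines cartilage, had intensities of 1.06 to 27.2 and never reached the filter level. Of 8 osteoblast markers 5 were measured, Ibsp and Sp7 of the set among them, and 0 of the 5 were above that level on average. The set is therefore called by its genes here, since the defining collagen of cartilage and all measured osteoblast markers were at the level of dim probe sets.

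Comp and Acan were the 2 genes above the filter level on all 15 arrays. Comp encodes a matrix protein of cartilage and tendon that binds collagen and is also made by vascular smooth muscle cells. Its intensities were 906, 383, 93.6, 366 and 372 on CHOW replicates 1 to 5. On 2w-WD replicates 1 to 5 they were 342, 159, 71.4, 76.4 and 2202. On 14w-WD replicates 1 to 5 they were 2655, 850, 1234, 161 and 280. The groups overlapped throughout, with high arrays in each diet, and the brightest array was 37.2 times the dimmest. On the log2(intensity + 16) scale used for all levels and changes, Comp averaged 8.49 ± 1.10, 8.01 ± 1.92 and 9.42 ± 1.58 (SD, n = 5 each) for CHOW, 2w-WD and 14w-WD. The SD within groups was 1.57, larger than that of 99.5% of the 11925 tested genes, whose median was 0.47.

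Acan encodes aggrecan, the large proteoglycan that holds water in cartilage and is also found in heart valves and vessel walls. Its intensities were 143, 87.8, 76.4, 85.4 and 113 on CHOW replicates 1 to 5. They were 95.5, 68.1, 71.8, 89.5 and 130 on 2w-WD replicates 1 to 5, and 209, 101.4, 141, 80.4 and 109 on 14w-WD replicates 1 to 5. The range was narrow, with the brightest array 3.08 times the dimmest, and the groups overlapped. Acan averaged 6.84 ± 0.32, 6.71 ± 0.32 and 7.11 ± 0.47 (SD, n = 5 each) for CHOW, 2w-WD and 14w-WD.

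The arrays with much Comp were also those with much Acan. The 4 brightest arrays were the same for both genes: CHOW replicate 1, 2w-WD replicate 5 and 14w-WD replicates 1 and 3. Over the 15 arrays Pearson's r was 0.86 (permutation p = 2.00e-05, adjusted p = 0.000700 over 35 relations) and Spearman's rho 0.83 (permutation p = 0.000260, adjusted p = 0.00303). Without the 2 arrays farthest from the median of Comp r was 0.81, and between deviations from the diet group means it was 0.84. Among the other tested genes, with names of clone-like or predicted form left out, Acan was the gene whose levels correlated best with Comp. In the same ranking Comp was the one that correlated best with Acan. That ranking was read off the data and is given as a description.

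**Figure D1:**
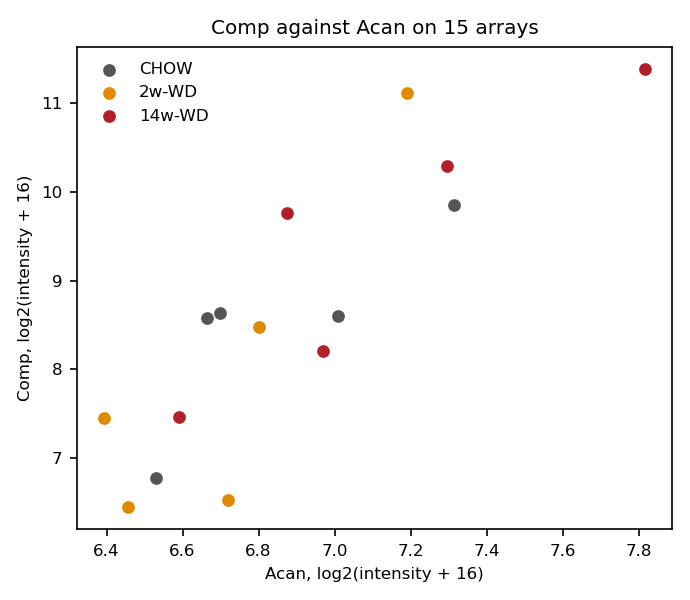
Log2 level of Comp (vertical) against Acan (horizontal), 1 point per array, coloured by diet group. Points rise together in all 3 diet groups, with r = 0.86 over 15 arrays.

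Both genes also moved with the fibroblast and valve interstitial markers and with the brightness of the array. Against the mean log2 level of the 10 fibroblast and valve interstitial markers, r was 0.69 for Acan (permutation p = 0.00429, adjusted p = 0.0167) and 0.71 for Comp (permutation p = 0.00377, adjusted p = 0.0165). The rank correlations were 0.63 and 0.64 (permutation p = 0.0132 and 0.0123), which missed the threshold after adjustment (adjusted p = 0.0514 for both). Without the 2 farthest arrays r was 0.51 and 0.57. Against the share of probe sets above 100, r was 0.62 for each (permutation p = 0.0136 for Acan and 0.0155 for Comp, adjusted p = 0.0418 for both), rho was 0.60 and 0.62 (permutation p = 0.0214 and 0.0173, adjusted p = 0.0636 and 0.0606), and r without the 2 farthest arrays was 0.59 and 0.49. The mean of the 10 fibroblast and valve interstitial markers ran from 9.75 to 10.39 in CHOW, from 9.49 to 10.51 in 2w-WD and from 10.11 upwards in 14w-WD. Acan also rose with the smooth muscle markers (r = 0.59, permutation p = 0.0196, adjusted p = 0.0465; rho = 0.58, permutation p = 0.0263, adjusted p = 0.0657; r = 0.63 without the 2 farthest arrays). Between deviations from the diet group means, r for Acan was 0.59 (fibroblast and valve interstitial), 0.52 (smooth muscle) and 0.48 (share above 100). For Comp it was 0.65 with the fibroblast and valve interstitial markers and 0.53 with that share. Against the macrophage markers r over the arrays was 0.50 for Acan and 0.57 for Comp (permutation test, adjusted p = 0.0919 and 0.0609). Between the deviations it was 0.35 and 0.51. Comp against the smooth muscle markers had r = 0.51 (permutation test, adjusted p = 0.0864), and 0.44 between the deviations. The part of these markers and of brightness in the Comp and Acan values was not tested.

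Hapln1 encodes the link protein that fixes aggrecan to hyaluronan, and Cytl1 a small secreted protein made by chondrocytes. Hapln1 intensities were 22.9, 42.1, 48.0, 45.0 and 67.8 on CHOW replicates 1 to 5. They were 28.4, 63.8, 77.3, 78.3 and 65.6 on 2w-WD replicates 1 to 5, and 29.6, 29.5, 32.7, 43.5 and 37.3 on 14w-WD replicates 1 to 5. The 2w-WD replicates 2 to 5 lay above every 14w-WD array, and 2w-WD replicate 1 lay below all of them. Hapln1 was above the filter level on 4 arrays each of CHOW and 2w-WD and on 2 arrays of 14w-WD. The mean log2 levels were 5.89 ± 0.40 (SD, n = 5), 6.25 ± 0.45 and 5.65 ± 0.16. The other 3 probe sets of Hapln1 were dimmer, with medians of 15.8, 3.85 and 9.21, and their log2 differences between 14w-WD and 2w-WD were -0.26, 0.05 and 0.20, against -0.60 for the brightest one.

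Cytl1 was at 194 and 77.0 on CHOW replicates 1 and 2 and at 22.4, 18.7 and 29.6 on replicates 3 to 5. In 2w-WD replicate 1 had 150 and the others 16.4, 29.1, 5.59 and 20.2. In 14w-WD replicates 2 and 3 had 143 and 97.8, and replicates 1, 4 and 5 had 20.9, 18.7 and 30.2. Each diet group thus held 1 or 2 arrays far above the filter level and 3 or 4 below it. The mean log2 levels were 6.03 ± 1.09, 5.50 ± 1.12 and 6.00 ± 1.01 (SD, n = 5 each) for CHOW, 2w-WD and 14w-WD, and the SD within groups, 1.07, exceeded that of 97.3% of tested genes.

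Hapln1 and Cytl1 ran against each other over the arrays, with r = -0.74 (permutation p = 0.00203, adjusted p = 0.0101), rho = -0.72 (permutation p = 0.00350, adjusted p = 0.0204) and r = -0.60 without the 2 farthest arrays. Cytl1 rose with the mean of the 10 smooth muscle markers (r = 0.81, permutation p = 0.000300, adjusted p = 0.00262; rho = 0.73, permutation p = 0.00274, adjusted p = 0.0192; r = 0.64 without the 2 farthest arrays). Hapln1 fell with it (r = -0.84, permutation p = 0.000110, adjusted p = 0.00128; rho = -0.86, permutation p = 8.00e-05, adjusted p = 0.00140; r = -0.77 without the 2 farthest arrays). The smooth muscle mean ran from 6.50 to 8.08 in CHOW, from 6.47 to 7.61 in 2w-WD and from 6.66 to 7.46 in 14w-WD, with Cnn1 and Smtn below the filter level. Hapln1 also fell with the macrophage markers (r = -0.75, permutation p = 0.00181, adjusted p = 0.0101; rho = -0.71, permutation p = 0.00423, adjusted p = 0.0211; r = -0.63 without the 2 farthest arrays) and with the fibroblast and valve interstitial markers (r = -0.76, permutation p = 0.000820, adjusted p = 0.00574; rho = -0.77, permutation p = 0.00115, adjusted p = 0.0101; r = -0.78 without them). Hapln1 followed the share of probe sets above 100 more closely still, with r = -0.89 (permutation p = 5.00e-05, adjusted p = 0.000875), rho = -0.91 (permutation p = 5.00e-05, adjusted p = 0.00140) and r = -0.90 without the 2 farthest arrays. For Cytl1 that share gave r = 0.65 (permutation p = 0.0107, adjusted p = 0.0373), rho = 0.60 (permutation p = 0.0218, adjusted p = 0.0636) and r = 0.54 without the 2 farthest arrays. Hapln1 was thus highest on the arrays with the fewest bright probe sets, while Cytl1, Acan and Comp were higher on arrays with more. Between deviations from the diet group means, Hapln1 had r = -0.82 (smooth muscle), -0.59 (macrophage), -0.64 (fibroblast and valve interstitial) and -0.88 (share above 100). Cytl1 had 0.81 with the smooth muscle markers and 0.74 with that share, and Hapln1 against Cytl1 had -0.79. Against the heart muscle, macrophage, and fibroblast and valve interstitial markers, r for Cytl1 over the arrays was 0.44, 0.53 and 0.49. These missed the threshold (permutation test, adjusted p = 0.146, 0.0811 and 0.0934). In the same order r was 0.60, 0.53 and 0.51 between the deviations. The part of brightness and of these markers in the Hapln1 and Cytl1 values was not tested.

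**Figure D2:**
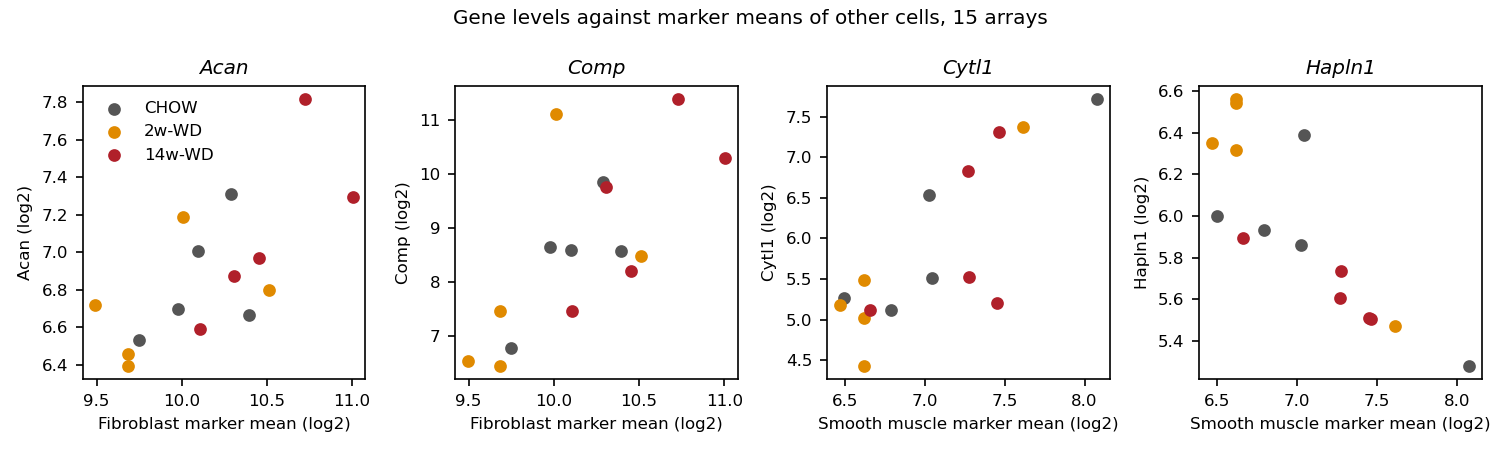
Log2 level of Acan and Comp against the mean of the fibroblast and valve interstitial markers, and of Cytl1 and Hapln1 against the mean of the smooth muscle markers, 1 point per array, coloured by diet group. Acan, Comp and Cytl1 rise with the marker means (r = 0.69, 0.71 and 0.81) and Hapln1 falls (r = -0.84).

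Promoter windows, 250 bases before to 50 after an annotated start, were given by RefSeq on build GRCm38.p6 for 7 of the 10 genes. For Hapln1 the start used for its window lies downstream of the first base of the gene in the RefSeq gene table. Those of Acan, Cytl1 and Hapln1 are shown because these 3 tested genes had different patterns over the arrays. Capitals mark a match on either strand to a core of the SOX family, for which 2 versions were searched, or to the RUNX core. The first SOX version has the letters ACAATG. The second version of the SOX core has the letters ACAAAG. The core bound by factors of the RUNX family was searched as ACCACA. A match on the opposite strand appears in its reversed and complemented form. The windows lie at chr7:79052976-79053275 (plus strand), chr5:37735269-37735568 (plus strand) and chr13:89540386-89540685 (plus strand), respectively.
Acan: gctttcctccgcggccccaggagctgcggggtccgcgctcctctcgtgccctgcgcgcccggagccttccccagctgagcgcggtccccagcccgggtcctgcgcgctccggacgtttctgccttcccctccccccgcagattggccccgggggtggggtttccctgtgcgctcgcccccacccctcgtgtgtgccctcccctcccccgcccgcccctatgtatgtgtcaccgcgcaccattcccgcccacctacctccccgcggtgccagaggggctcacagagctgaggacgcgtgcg
Cytl1: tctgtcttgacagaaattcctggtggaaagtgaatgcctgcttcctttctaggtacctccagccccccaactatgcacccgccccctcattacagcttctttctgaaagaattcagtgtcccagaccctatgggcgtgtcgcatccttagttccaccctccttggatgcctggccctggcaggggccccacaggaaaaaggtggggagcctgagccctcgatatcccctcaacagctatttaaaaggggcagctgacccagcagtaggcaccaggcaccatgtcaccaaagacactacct
Hapln1: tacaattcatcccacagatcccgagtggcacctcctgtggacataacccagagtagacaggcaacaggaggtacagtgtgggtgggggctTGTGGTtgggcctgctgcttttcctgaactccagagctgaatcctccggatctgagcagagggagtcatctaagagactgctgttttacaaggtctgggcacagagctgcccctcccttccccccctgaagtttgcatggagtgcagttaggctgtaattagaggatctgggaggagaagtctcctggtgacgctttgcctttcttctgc
Hapln1 held 1 RUNX core, at position -160 from the start used for its window, and Acan and Cytl1 held 0 of the 3 motifs. Among all 32851 windows of this length, 16.8% held the RUNX core and 28.6% at least 1 of the SOX cores. These are matches of letters only.

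Sox9 was dim. Its brightest probe set had intensities of 32.2, 18.7, 56.5, 50.1 and 34.0 on CHOW replicates 1 to 5. On 2w-WD replicates 1 to 5 it had 40.5, 31.5, 4.72, 42.9 and 28.3. In 14w-WD replicates 1 and 3 reached 143 and 122, while replicates 2, 4 and 5 had 23.4, 41.1 and 29.6. The values of 14w-WD replicates 1 and 3 were the highest of all 15 arrays, and the other 3 arrays of that group lay within the range of CHOW. The mean log2 levels were 5.72 ± 0.42 (SD, n = 5), 5.42 ± 0.61 and 6.21 ± 0.93. Its other 2 probe sets stayed below the filter level on every array, with highest intensities of 20.1 and 24.8, and differed between 14w-WD and 2w-WD by a log2 of 0.43 and -0.05. Against Acan r was 0.60 (permutation p = 0.0199, adjusted p = 0.0465) but rho 0.24 (permutation p = 0.399, adjusted p = 0.499), and without the 2 farthest arrays r fell to 0.42. Against the fibroblast and valve interstitial markers r was 0.62 for Sox9 (permutation p = 0.0146, adjusted p = 0.0418). There rho was 0.41 (permutation p = 0.132, adjusted p = 0.190), and r was 0.18 without the 2 farthest arrays. Between deviations from the diet group means r for Sox9 was 0.50 against Acan and 0.46 against these markers.

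Chad, which encodes chondroadherin, a cartilage protein that binds collagen and cells, was above the filter level on 2 of 15 arrays. Its intensities were 26.7, 45.0, 2.57, 1.11 and 6.31 in CHOW, 1.87, 27.4, 5.44, 7.07 and 4.22 in 2w-WD and 31.2, 9.98, 176, 2.24 and 11.5 in 14w-WD, in replicate order. The value of 176 was on 14w-WD replicate 3, an array that was also bright for Sox9, Acan and Comp. Matn4, a matrilin that links matrix fibrils, was above the filter level on 0 of 15 arrays, with 3.35 to 11.7 in CHOW, 4.72 to 20.8 in 2w-WD and 3.79 to 10.1 in 14w-WD.

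The bone genes were dimmer than the filter level on nearly all arrays. Ibsp had 21.8, 15.7, 25.1, 36.6 and 17.5 on CHOW replicates 1 to 5, 34.0, 33.8, 20.2, 42.5 and 33.6 on 2w-WD replicates 1 to 5 and 21.0, 31.8, 32.4, 22.7 and 24.6 on 14w-WD replicates 1 to 5. It passed the filter level on 1 CHOW and 1 2w-WD array, and its other probe set was above it on 2 arrays (highest 65.6). Sp7, the osteoblast factor osterix, had 1.11 to 28.3 in CHOW, 2.44 to 13.5 in 2w-WD and 4.59 to 25.2 in 14w-WD and was above the filter level on 0 of 15 arrays. Alpl, the phosphatase that frees phosphate for mineral, was above it on 1 array, with 70.4 as its highest value in 14w-WD. A dim value on this array does not show that a gene is silent, since the deposited table holds no detection calls.

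**Figure D3:**
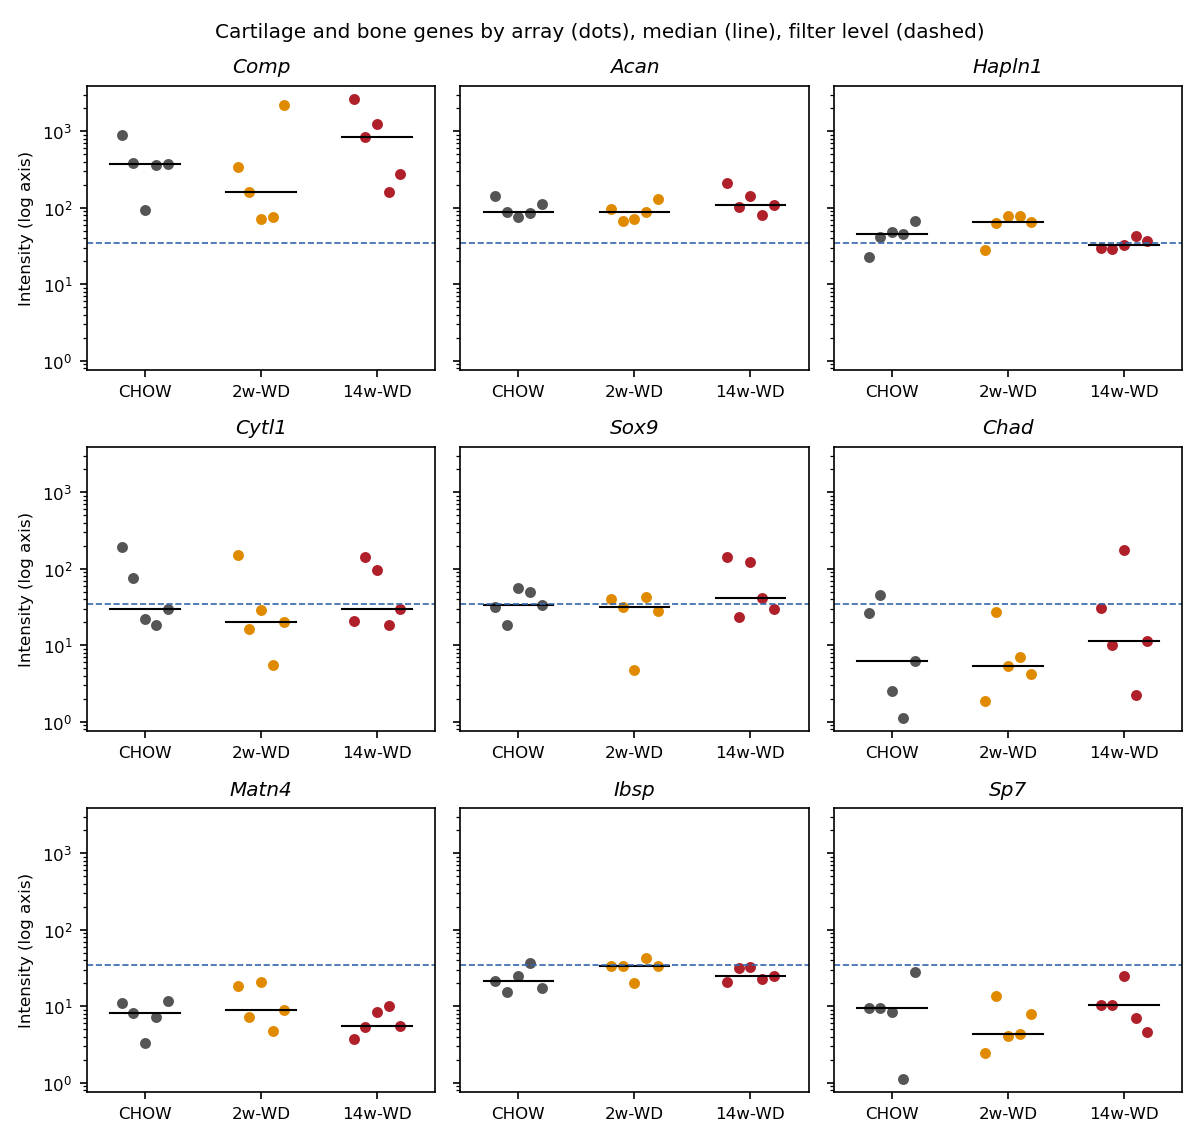
Intensity (log axis) of the 9 measured genes on each array (dots, replicates 1 to 5 from left to right), by diet group; black lines are group medians and the dashed line is the filter level of 34.6. Comp and Acan lie above it on all 15 arrays, and Matn4 and Sp7 on 0.

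By the series text the 2w-WD mice ended at 24 weeks and the CHOW and 14w-WD mice at 22. On that timing age and diet cannot be told apart in comparisons with 2w-WD. Short feeding was read from 2w-WD against CHOW. Here 0 of the 5 tested genes passed limma's test (threshold 0.05 after Benjamini-Hochberg adjustment over the 11925 genes), where 0% of all genes did. Unadjusted, 0 of 5 were under 0.05, against 9.76% of all genes (2.47% higher and 7.3% lower). Groups without overlap were found for 0 of the 5, against 0.294% of all genes higher and 0.83% lower. Comp was lower by a log2 of 0.48 (change -0.48, 95% interval -2.29 to 1.33), Cytl1 had -0.53 (-1.76 to 0.70), Sox9 -0.29 (-1.11 to 0.52), Acan -0.13 (-0.66 to 0.40) and Hapln1 0.36 (-0.13 to 0.84). Their median was -0.29, against -0.10 for all tested genes, and the adjusted p-values ran from 0.587 to 0.869 (limma). The intervals of Comp, Cytl1 and Sox9 still allow changes of more than a log2 of 1, so these data do not show that the levels were alike. With array weights Acan and Comp turned to 0.01 and 0.17.

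For long feeding, 14w-WD against CHOW, 0 of 5 passed, beside 0.00839% of all genes. Unadjusted, 0 of 5 were under 0.05, beside 15.9% of all genes (11.2% higher and 4.65% lower). Groups did not overlap for 0 of the 5, beside 3.09% of all genes higher and 1.79% lower. Comp was at 0.93 (95% interval -0.88 to 2.75), Sox9 at 0.50 (-0.32 to 1.31), Acan at 0.27 (-0.26 to 0.80), Cytl1 at -0.03 (-1.26 to 1.20) and Hapln1 at -0.24 (-0.73 to 0.24). The median was 0.27 and that of all tested genes 0.16, with adjusted p-values of 0.534 to 0.981 (limma). With brightness, the percentage of probe sets over 100, as a covariate Comp stood at -0.25 and Hapln1 at 0.21. Both comparisons with CHOW share its 5 arrays.

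When the 2 feeding times were set against each other, 14w-WD minus 2w-WD, 0 of 5 passed, while 11.2% of all tested genes did, 10.1% higher and 1.15% lower in 14w-WD. Comp was at 1.41 (SE 0.86, 95% interval -0.40 to 3.23, adjusted p = 0.259), Sox9 at 0.79 (-0.02 to 1.60, adjusted p = 0.166), Cytl1 at 0.50 (-0.73 to 1.73, adjusted p = 0.569) and Acan at 0.40 (-0.13 to 0.93, adjusted p = 0.276). Hapln1 was at -0.60 (SE 0.23, 95% interval -1.08 to -0.11, adjusted p = 0.0915). Its unadjusted limma p was 0.0188. No other tested member was under 0.05 unadjusted, where 32.1% of all genes were (25.9% higher and 6.13% lower). The median of the 5 was 0.50, and that of all tested genes 0.23. None of the 9 measured genes separated the groups in this or the other comparisons, whereas 7.06% of all genes lay wholly higher and 1.57% wholly lower in 14w-WD than in 2w-WD.

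The Hapln1 difference passed in limma with array weights (-0.74, adjusted p = 0.00600) and without 2w-WD replicate 1 (-0.79, adjusted p = 0.0108). Those fits called 3839 and 3536 of all 11925 genes, against 1338 in the main fit. With brightness as a covariate the Hapln1 difference was -0.03 (adjusted p = 0.981), and 0 of all genes were called. The Comp difference kept its direction when any single array was left out and passed in none of those fits, but its size moved. It was 2.19 (adjusted p = 0.0708) without 2w-WD replicate 5 and 0.92 (adjusted p = 0.509) without 14w-WD replicate 1. With brightness as a covariate it was -0.08 (adjusted p = 0.991). The higher group in Comp, Acan and Sox9, 14w-WD, was also the group with more bright probe sets, 24.8% ± 1.79 (SD, n = 5) against 20.9% ± 2.86, and with the higher fibroblast and valve interstitial mean, 10.52 ± 0.35 against 9.88 ± 0.40. In tissue captures fewer cells of a type and less RNA per cell cannot be told apart.

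**Figure D4:**
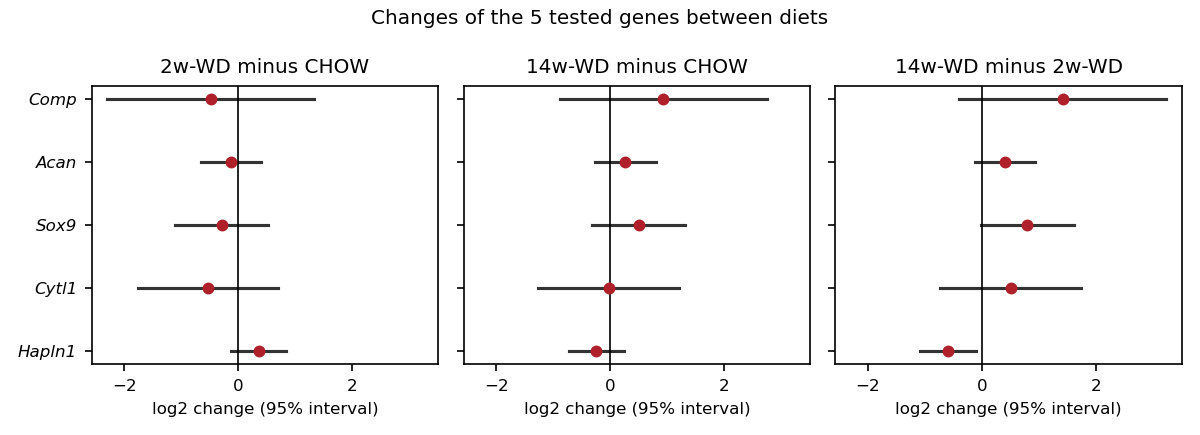
Log2 change of the 5 tested genes in each comparison (dots) with the 95% interval of limma (bars). All intervals cross 0 except that of Hapln1 in 14w-WD minus 2w-WD, which runs from -1.08 to -0.11.

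Other genes of cartilage, mineral, bone resorption, aggrecan breakdown and bone morphogenetic protein (BMP) signalling were followed in 5 lists. In the comparisons with CHOW, 0 genes of any of these lists passed. In 14w-WD against CHOW this depended on the fit. With array weights 3 of 21 cartilage, 2 of 14 mineralisation and 1 of 13 bone resorption genes passed. So did 1 of 10 breakdown and 4 of 19 BMP genes, beside 2234 of all 11925 genes. When only those groups were fitted, or without 2w-WD replicate 1, 1 cartilage gene passed, beside 122 and 201 of all genes. In 14w-WD against 2w-WD the cartilage list had 0 of 21 tested genes past the threshold (median change 0.18), and 12 more of its 33 measured genes, Col2a1, Col10a1 and Matn3 among them, were too dim to test. That 0 became 5 with array weights, 4 without 2w-WD replicate 1 and 2 without 14w-WD replicate 4. It became 1 with quantile normalization, with only those groups fitted, or without CHOW replicate 1 or 5. In the same order these fits called 3839, 3536, 1609, 969, 1452, 1824 and 1497 of all genes, against 1338 in the main fit. The 2 genes with the smallest unadjusted p over the 3 comparisons were matrilins: Matn1 averaged 6.95 ± 0.57 (SD, n = 5), 7.16 ± 0.57 and 6.29 ± 0.28 in CHOW, 2w-WD and 14w-WD, and Matn2 7.38 ± 0.68, 8.17 ± 1.14 and 9.11 ± 0.56. For Matn1 the change from 2w-WD to 14w-WD was -0.87 (adjusted p = 0.0668 in limma), and for Matn2 the change from CHOW to 14w-WD was 1.73 (adjusted p = 0.136). Matn1 passed in limma with array weights (adjusted p = 0.00396), with quantile normalization, and without CHOW replicate 1 or 2w-WD replicate 1 (smallest adjusted p = 0.00724). Matn2 passed with array weights (adjusted p = 0.0130), with only those groups fitted, and without 2w-WD replicate 1 (adjusted p = 0.0374).

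Of the mineralisation list 3 of 14 tested genes were higher in 14w-WD than in 2w-WD, 0 were lower, and the median was 0.53. Of all tested genes 10.1% were called higher and 1.15% lower there, with a median change of 0.23. Mgp, the matrix Gla protein that holds back calcification of vessels, averaged 13.61 ± 0.11, 13.31 ± 0.31 and 13.77 ± 0.13 (SD, n = 5 each) for CHOW, 2w-WD and 14w-WD, 0.46 higher in 14w-WD than in 2w-WD (adjusted p = 0.0309). Slc20a1, which encodes a sodium-phosphate importer, was 1.22 higher (adjusted p = 0.0418), with means of 8.11 ± 0.53, 6.92 ± 0.48 and 8.14 ± 0.72 (SD, n = 5 each) for CHOW, 2w-WD and 14w-WD, so that 2w-WD was the low group. Col1a1, a chain of the main bone and scar collagen, was 1.05 higher (adjusted p = 0.0402), with 12.18 ± 0.54, 11.39 ± 0.63 and 12.44 ± 0.43 in the same order. These 3 members are a calcification inhibitor, a transporter and a general matrix collagen, and Col1a1 is also among the fibroblast and valve interstitial markers. The alkaline phosphatase gene Alpl and 12 other members were too dim to test.

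In 14w-WD against 2w-WD 10.1% of all tested genes were called higher and 1.15% lower (median change 0.23). Of the bone resorption list 3 of 13 tested genes were higher in that comparison and 0 were lower (median 0.41). They were Acp5, the acid phosphatase TRAP (1.58, adjusted p = 0.0483), the collagen-cleaving protease gene Ctsk (1.08, adjusted p = 0.0323) and Clcn7, a chloride transporter of lysosomes and the osteoclast border (1.54, adjusted p = 0.0421). For CHOW, 2w-WD and 14w-WD, in that order, Acp5 averaged 9.27 ± 0.96, 7.67 ± 0.80 and 9.26 ± 0.73 (SD, n = 5 each), a 14w-WD level that differed from CHOW by -0.02. Ctsk averaged 12.73 ± 0.23, 11.89 ± 0.88 and 12.96 ± 0.16, and Clcn7 10.36 ± 0.55, 9.25 ± 1.24 and 10.79 ± 0.13. The 2w-WD mean was the lowest for each. All 3 are also genes of macrophages. The macrophage marker mean was 11.91 ± 0.22, 11.63 ± 0.14 and 12.00 ± 0.16 in the same order, and its part in these differences was not tested.

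Among aggrecan and COMP breakdown genes 1 of 10 was higher in 14w-WD than in 2w-WD, Mmp3, a matrix protease (2.25, adjusted p = 0.0212), from 8.11 ± 0.92 (SD, n = 5) in 2w-WD to 10.36 ± 0.65 in 14w-WD, with 9.44 ± 1.17 in CHOW. Of the BMP list 2 of 19 were higher, Id2 (1.69, adjusted p = 0.0439) and Id3 (1.65, adjusted p = 0.0486), and the list median was 0.23. Both are BMP target genes and encode inhibitors of helix-loop-helix factors. Of the same list, Id1 and Smad6 were too dim to test, and Smad7 was at -0.0014 (adjusted p = 0.999 in limma). Id2 averaged 10.52 ± 0.95, 9.46 ± 1.21 and 11.16 ± 0.25 (SD, n = 5 each) for CHOW, 2w-WD and 14w-WD, and Id3 8.36 ± 1.24, 7.12 ± 0.72 and 8.78 ± 0.58. Bmp2, a ligand that drives bone and cartilage formation, averaged 7.36 ± 1.42, 6.63 ± 1.37 and 7.42 ± 0.48 in the 3 groups. The lists' median changes stood between 0.18 and 0.53, beside 0.23 for all genes. The shares called were 0% to 23.1%, beside 11.2% of all genes (10.1% higher and 1.15% lower).

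All 9 called list genes kept their direction under every alternative, but with brightness as a covariate 0 of the 9 passed, as did 0 without 2w-WD replicate 2 and without 14w-WD replicates 1 or 3. Only 1 passed without 2w-WD replicate 4 or 14w-WD replicates 2 or 5, and 3 without 2w-WD replicate 3 or with no filter. Without CHOW replicates 2, 3 or 4, 2w-WD replicate 5 or 14w-WD replicate 4, 5 to 8 passed. With other processing 5 passed after quantile normalization, 6 after median centring, 6 with mean probe sets, 7 with a pseudocount of 64 and 8 with only the compared groups fitted.

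**Figure D5:**
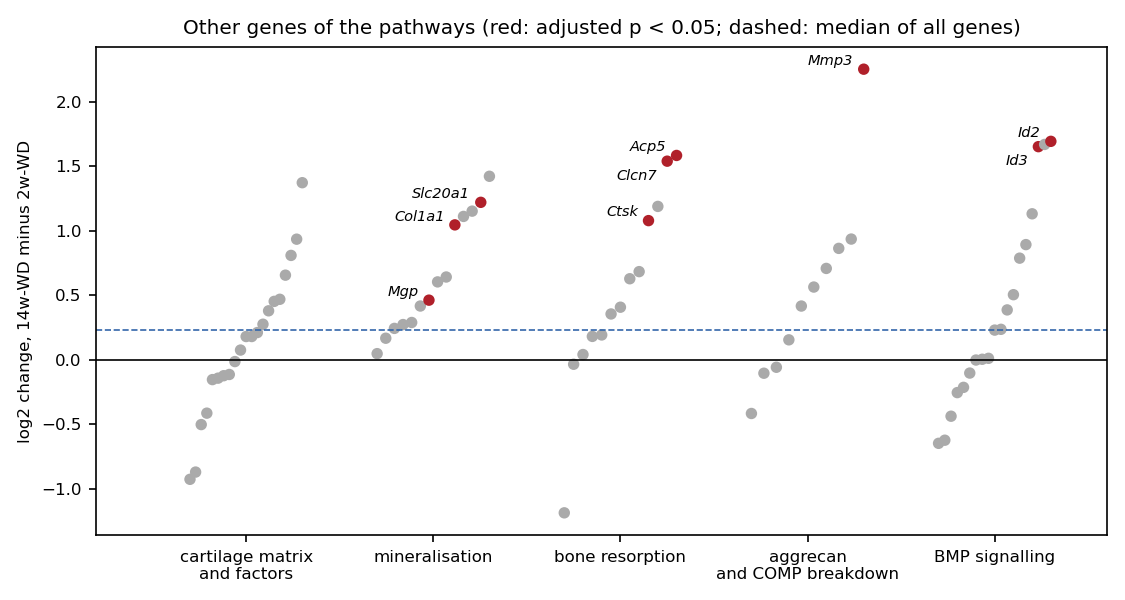
Log2 change from 2w-WD to 14w-WD of each tested gene of the 5 lists (dots, sorted within a list); red dots passed the adjusted threshold of 0.05 and are named, and the dashed line is the median of all tested genes, 0.23. The 9 named genes all lie above that line, and the cartilage list has 0.

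By correlation of log2 levels over the 15 arrays, given as a description, the genes most like Comp after Acan were Cald1 (r = 0.84), the caldesmon of contractile cells, and Ankrd54 (0.83). Those most like Acan after Comp were Ttc9 (0.85) and Clec11a (0.84), which encodes a growth factor of bone-forming cells. Sox9 was most like Ell2 (0.87), Inhba (0.85), a chain of activin, and Ppm1j (0.80), although the rank correlation with Ppm1j was 0.39. Hapln1 was most like Tox (0.96), Cand2 (0.94) and Alox12 (0.94), and Cytl1 most like Anapc16 (0.87), Ahsg (0.86), the gene of the serum calcification inhibitor fetuin-A, and Mroh1 (0.86). These correlations were not adjusted for the brightness of the arrays.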

How the data were processed

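Amplified RNA of laser-captured foam cells was measured on 15 Affymetrix mouse genome arrays. The deposited table holds 1 linear intensity per probe set and array (45037 probe sets). Their summarisation and normalization by the authors were not given in the sources used here. Per the labels' protocols, RNA was extracted with PicoPure and amplified with RiboAmp HS kits. Probe sets were named through GEO's annotation of the array: 34945 had 1 gene, 932 several and 9160 none, and 34741 matched the GRCm38.p6 gene table by gene number. Values were analysed as log2(intensity + 16), a scale that understates fold changes of dim genes. The probe set with the highest mean represented a gene, and genes whose mean lay under the all-probe-set median (log2 5.66) were not tested. Tests used limma 3.58.1 (lmFit, eBayes with an intensity trend, R 4.3.3) on all 15 arrays, two-sided, with Benjamini-Hochberg adjustment over 11925 genes, and were tested on simulated data. SEs and intervals are those of limma. Correlations over arrays (35 relations) had two-sided permutation p-values from 100000 shuffles of all 15 arrays. The shuffles crossed diet groups, so these p-values also take in differences between the diets. Named genes were all members, list genes past the threshold (at most 4 per list and comparison, or else the 2 with the smallest p) and a few fixed markers. The 3 genes most like each tested member were also named, with names of clone-like or predicted form left out before ranking. The members, lists and tests were chosen with earlier results of these data known. Alternatives were pseudocounts of 1 and 64, no filter, quantile normalization, median centring, array weights, fits of 2 groups, mean probe sets, a replicate block, a brightness covariate and leaving out each array.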

Additional observations from a re-analysis of the deposited data

Results flagged for a closer look

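Within a diet group of 5 arrays, 3 of 27 sets of log2 levels held an array far from the others; about 1 in 20 such sets is marked by chance. Sox9 stood at 4.37 on 2w-WD replicate 3, against 5.47 to 5.88 on the other 4 arrays. Hapln1 stood at 5.47 on 2w-WD replicate 1, the 2w-WD array with the largest share of probe sets above 100 (25.7%), against 6.32 to 6.56 on the others. Chad stood at 5.44 on 2w-WD replicate 2, an intensity of 27.4 and so below the filter level, against 4.16 to 4.53.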

How the results depend on the processing

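Of the 5 tested members of the gene set, and of the other 4 where no filter was set, 0 were called in 2w-WD or in 14w-WD against CHOW under any alternative run. Of the lists, 0 genes were called in 2w-WD against CHOW under any alternative. In 14w-WD against CHOW they gave up to 3 (cartilage), 2 (mineralisation), 1 (bone resorption), 1 (breakdown) and 4 (BMP). Those highest counts came with array weights, which called 2234 of all 11925 genes there. In 14w-WD against 2w-WD the lists gave 0 to 5, 0 to 9, 0 to 6, 0 to 3 and 0 to 7 in the same order, and the replicate block gave 1 for cartilage, Matn1. In 14w-WD against 2w-WD the number of called members was 1 with array weights and 1 with the replicate block. That was Hapln1 both times (adjusted p = 0.00600 and 0.0413 in limma). When single arrays were left out the number of called members was 0 to 1. The replicate numbers did not pair the arrays: 7 of 15 same-numbered pairs had deviations from the group means that correlated above 0.1 (range -0.17 to 0.48), and the block raised the number of genes called in that comparison from 1338 to 2122. That number was 3839 with array weights, 3536 without 2w-WD replicate 1, 164 without 14w-WD replicate 1 and 0 with the brightness covariate. Signs turned only for uncalled changes. With array weights they were 0.0072 (Acan) and 0.17 (Comp) in 2w-WD against CHOW and 0.35 (Cytl1) and 0.23 (Acp5) in 14w-WD against CHOW. With the brightness covariate, 14w-WD against CHOW gave -0.25 (Comp), 0.21 (Hapln1), -0.27 (Clcn7), -0.040 (Col1a1), -0.11 (Ctsk), -0.55 (Id3) and -0.65 (Slc20a1), and 14w-WD against 2w-WD gave -0.079 (Comp) and -0.93 (Cytl1). Slc20a1 in 14w-WD against CHOW, 0.03, was -0.37 with quantile normalization, -0.020 with median centring and -0.020 with mean probe sets. Leaving out single arrays gave -0.36 to 0.39 for Cytl1, -0.27 to 0.28 for Acp5 and -0.15 to 0.32 for Slc20a1 in 14w-WD against CHOW, and -0.014 to 0.46 for Matn1 in 2w-WD against CHOW. The cause was not tested in any of these. Sox9 and Hapln1 fell below the filter level when probe sets were averaged and were not tested there. With no filter, Chad, Matn4, Ibsp and Sp7 had adjusted p-values of 0.315 to 0.958. Of the measured members of the set, dim signal limits all but Comp and Acan.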
